A study of Caenorhabditis elegans with 2 samples.

Results

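The small heat shock genes of Caenorhabditis elegans that lie outside the hsp-16 group were examined in worms given ellagic acid (EA), a plant polyphenol. They were picked by gene name and family, and all 8 had a row among the 21163 gene rows: sip-1, hsp-17, hsp-43, hsp-25, hsp-12.1, hsp-12.2, hsp-12.3 and hsp-12.6. RNA of whole worms of the wild-type laboratory strain N2 was sequenced. The sample titles give 5 days for both groups and do not say whether this is age or length of treatment. The EA group received 100 µM EA and the control group the vehicle, dimethyl sulfoxide (DMSO, 0.2% in the working solution). Both were mixed with the food bacterium, Escherichia coli OP50. Each group held 1 library, with 39421614 counts for EA and 41840364 counts for control. The sources used here do not state how many worms made up a library. No difference below has a replicate check, no test was run, and every interval is a 95% counting interval that leaves out the spread between cultures.

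Small heat shock proteins are chaperones built around a conserved alpha-crystallin domain. They bind unfolding proteins without using ATP and hold them until Hsp70 and its partners refold them. In C. elegans the hsp-16 genes are known as the strongly heat-inducible members, while several of the others are made in unstressed animals in particular tissues. Both the heat shock factor HSF-1 and the forkhead factor DAF-16, the output of the insulin/IGF-1 pathway named in the series title, are known to regulate genes of the family. RNA interference against sip-1 or hsp-12.6 is known to shorten the life of long-lived daf-2 mutants. In whole-worm RNA, fewer cells of a type and less RNA per cell cannot be told apart.

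Of the 8 genes, hsp-12.6 alone was at least 2-fold lower in EA worms with a counting interval that excluded 1, and 0 were at least 2-fold higher. Of the 14221 genes whose mean reached 1 CPM (counts scaled to library size, as CPM), 3.52% were lower and 2.03% higher by the same limits. All 8 genes reached 1 CPM, so none was left out. The log2 ratio of EA to control was below 0 for 7 genes and above 0 for sip-1. It ranged from -1.63 for hsp-12.6 to 0.29 for sip-1, with a median of -0.26. The median over all genes was 0.00 (-0.002), and 50.3% of them had a ratio below 0. The interval lay wholly below 1 for 4 of the 8 genes and wholly above 1 for 1 of them, but it did so for 32.2% and 31.9% of all genes. An interval that excludes 1 is therefore common between these libraries.

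**Figure D1:**
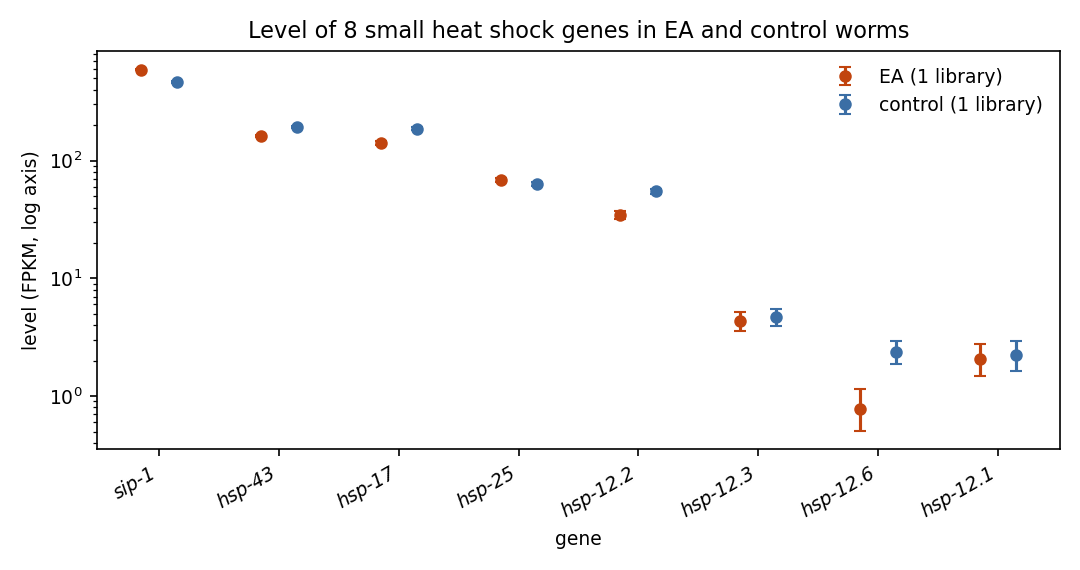
Level of each gene in FPKM (fragments scaled by transcript length and by depth, log axis) in the EA library (left of each pair of points) and the control library, with bars for the 95% counting interval of the level. The genes span 593 to 0.776 FPKM with EA and 463 to 2.21 FPKM in control, and hsp-12.6 is the gene whose points lie farthest apart.

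Together the 8 genes took 775 CPM in the EA library and 808 CPM in the control library, a ratio of 0.959 (0.945 to 0.974). That near-equal sum was made of different parts. sip-1 held 50.2% of the summed level with EA and 39.4% in control. Without sip-1, a sum computed after its ratio was seen, the other genes took 386 CPM with EA and 490 CPM in control, a ratio of 0.789 (0.772 to 0.805).

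The genes fell into abundant and scarce ones on the length-corrected FPKM scale, as the authors deposited it. In EA worms the order was sip-1 at 593 FPKM, hsp-43 at 161, hsp-17 at 141, hsp-25 at 68.2, hsp-12.2 at 34.7, hsp-12.3 at 4.31, hsp-12.1 at 2.05 and hsp-12.6 at 0.776 FPKM. In control worms it was sip-1 at 463 FPKM, hsp-43 at 194, hsp-17 at 186, hsp-25 at 63.6, hsp-12.2 at 54.7, hsp-12.3 at 4.68, hsp-12.6 at 2.36 and hsp-12.1 at 2.21 FPKM. Only hsp-12.1 and hsp-12.6 exchanged places. In control worms their counting intervals overlapped (1.88 to 2.94 FPKM for hsp-12.6 and 1.63 to 2.93 for hsp-12.1), as did those of hsp-43 and hsp-17 (191 to 198 and 181 to 191 FPKM, whose unrounded bounds of 190.7 and 191.4 cross). In EA worms no neighbours in the order had overlapping intervals, with hsp-12.1 at 1.48 to 2.77 and hsp-12.6 at 0.502 to 1.15 FPKM. How these orders compare with the spread between cultures cannot be told from 1 library per group.

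sip-1 encodes a small heat shock protein known from oocytes and embryos. It lies on chromosome III (10506106 to 10506801, minus strand, build WBcel235), with 1 annotated transcript of 2 exons and 640 nucleotides and a protein of 159 residues. It had 15512 counts with EA and 13144 counts in control, which is 389 CPM and 318 CPM. This was a ratio of 1.22 (1.19 to 1.25). Of 764 other genes within 2-fold of its mean level, 716 had a lower ratio. The level of sip-1 was 70.7 CPM higher with EA, and no other gene of the set was higher on this scale. Genes of oocytes and early embryos, a list of 19 markers all at 1 CPM or more, had 18 ratios above 0 and a median log2 ratio of 0.36, with 0 past 2-fold and none listed at 0. Their summed level was 7294 CPM with EA and 5919 CPM in control, a ratio of 1.23 (1.23 to 1.24), beside 1.22 for sip-1. With the length trend described further on removed, the log2 ratio of sip-1 was 0.47 and the median of the list 0.32. Within that list oma-2, which encodes an oocyte maturation factor, was at 126 CPM with EA and 79.0 CPM in control, and rme-2, the yolk receptor gene of oocytes, was at 180 CPM with EA and 141 CPM in control. Whether the content of oocytes and embryos played a part in the ratio of sip-1 was not tested.

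hsp-17 encodes a small heat shock protein known to collect unfolding proteins into aggregates. It lies on chromosome V (8384799 to 8385929, minus strand), with 2 annotated transcripts, the longest of 557 nucleotides, and proteins of 148 and 149 residues. It had 3200 counts with EA and 4582 counts in control, or 80.2 CPM and 111 CPM. hsp-17 was thus 1.38-fold lower with EA (1.32 to 1.45), short of 2-fold. Only 139 of 3670 other genes within 2-fold of its mean level had a lower ratio. It shares 73 of its 560 exon bases with the gene F52E1.14 on the opposite strand, which was at 412 CPM with EA and 416 CPM in control. The sources used here do not say whether counting used strand, and reads of this stretch then belong to either gene.

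hsp-43 encodes the longest protein of the set and is known from cells of the spermatheca and vulva. It lies on chromosome X (6233151 to 6235543, minus strand), with 2 annotated transcripts, the longest of 7 exons and 1385 nucleotides, and proteins of 368 and 393 residues. It had 8677 counts with EA and 11334 counts in control, or 217 CPM and 274 CPM. The level was 1.26-fold lower with EA (1.23 to 1.30), and the difference of -56.8 CPM was the largest decrease of the 8 genes. Of 1361 other genes near its level 93 had a lower ratio. Next to it, 102 bases away on the same strand, C14F11.4 was at 28.0 CPM with EA and 44.0 CPM in control, a log2 ratio of -0.65. All 3 spermatheca markers had ratios below 0 and 0 were past 2-fold, with a median of -0.42, though sth-1 turned to 0.05 with the length trend removed. Their sum was 49.6 CPM with EA and 61.7 CPM in control, and their part in the ratio of hsp-43 was not tested.

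hsp-25 encodes a protein of the muscle attachment sites, the dense bodies and M lines, and the deposited annotation gives it both terms. It lies on chromosome X (6034463 to 6039644, minus strand), 193506 bases and 40 genes away from hsp-43. Its 4 annotated transcripts encode proteins of 108 to 219 residues, and the longest transcript has 1125 nucleotides. It had 2612 counts with EA and 2797 counts in control, or 65.5 CPM and 67.7 CPM. The log2 ratio was -0.05 with an interval from -0.13 to 0.03, so no difference was detectable beyond counting error. Its deposited FPKM lay the other way, at 68.2 with EA and 63.6 in control, a log2 ratio of 0.10. Counts divided by FPKM, a measure of the length used to scale a gene, had an EA to control ratio of 0.871 for hsp-25. The median over 14221 genes was 0.922, the range from the 5th to the 95th percentile 0.908 to 0.939, and 197 genes were lower than hsp-25. hsp-25 shares 53 of its 1134 exon bases with ipp-5 on the opposite strand. The 16 markers of muscle dense bodies and sarcomeres had 0 past 2-fold and a median log2 ratio of 0.00. Of their ratios 8 were above 0, or 12 by the deposited FPKM, whose median over all genes was 0.06. The markers summed to 2465 CPM with EA and 2493 CPM in control.

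**Figure D2:**
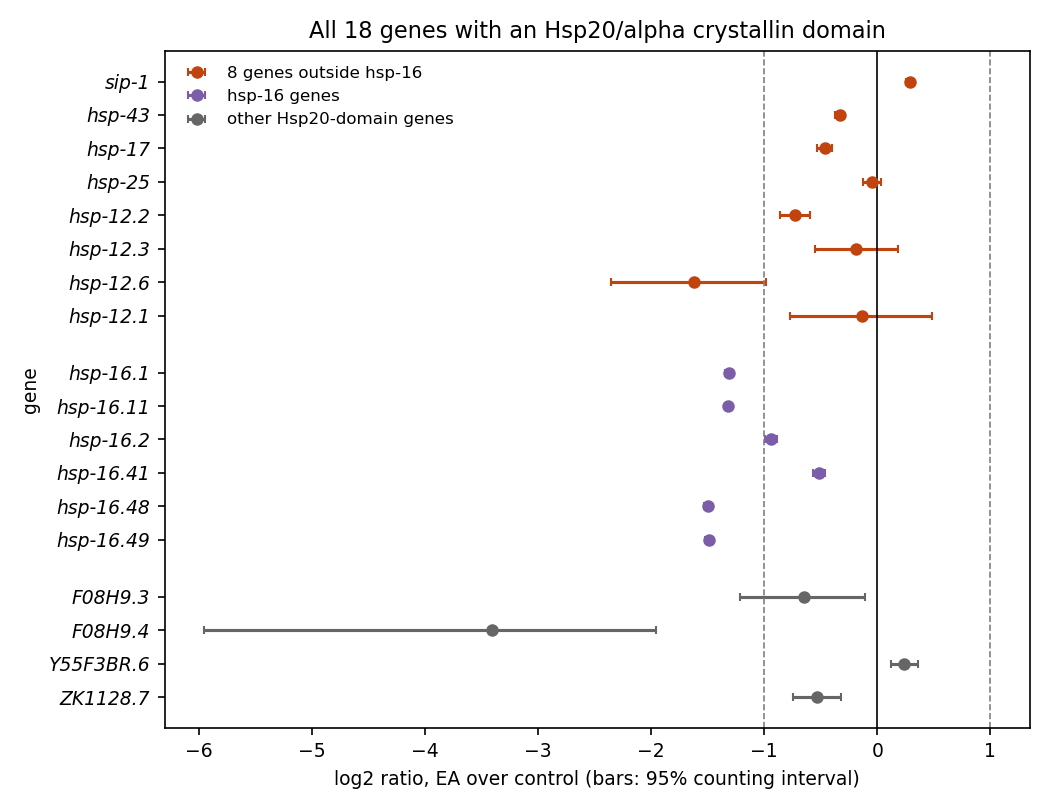
Log2 ratio of EA to control for the 18 genes with an Hsp20/alpha crystallin domain in the deposited annotation, with bars for the 95% counting interval and dashed lines at 2-fold. Among the 8 genes outside hsp-16 only hsp-12.6 lies past 2-fold, while 4 of the 6 hsp-16 genes do.

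The 4 hsp-12 genes encode some of the smallest proteins of the family, mostly of 109 or 110 residues, with little sequence outside the alpha-crystallin domain. Purified proteins of this group are known to lack the usual chaperone activity. Summed, they had 919 counts with EA and 1525 counts in control, a scaled ratio of 0.624 (0.575 to 0.678), and all 4 log2 ratios were below 0, though that of hsp-12.1 turned with the length trend described further on removed. Most of that sum was hsp-12.2.

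hsp-12.6 lies on chromosome IV (9446229 to 9447228, minus strand), with 1 annotated transcript of 3 exons and 769 nucleotides and a protein of 110 residues. The deposited annotation places it, with sip-1, in the worm longevity regulating pathway. It had 25 counts with EA and 81 counts in control, or 0.626 CPM and 1.96 CPM. This made it 3.09-fold lower with EA, and the counting interval reached from 1.98-fold to 5.11-fold. In the authors' deposited table hsp-12.6 was called down with a log2 fold change of -1.64 and a false discovery rate of 0.00049, the other 7 genes were called neither up nor down, and 3.52% of 14692 genes tested there were called down. The gene passed the limit of 1 CPM through the control library, since its EA level is under it. At a limit of 5 CPM, which leaves hsp-12.6 out, 0 of the 5 genes kept were past 2-fold, against 1.52% of 10610 genes lower and 0.481% higher. Of 2058 other tested genes within 2-fold of its mean level, 64 had a lower ratio, and 11.4% were at least 2-fold lower by the same rule.

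hsp-12.3 is the neighbour of hsp-12.6 on the same strand of chromosome IV (9444791 to 9445314), with 914 bases and 0 other genes between them. It encodes 109 residues. It had 118 counts with EA and 139 counts in control, or 2.96 CPM and 3.36 CPM. Its log2 ratio of -0.18 had an interval from -0.55 to 0.18, so no difference was detectable at this depth. Within a library, the count of hsp-12.3 was 4.72 times that of hsp-12.6 with EA and 1.72 times in control. That proportion differed 2.74-fold between the libraries (1.61 to 4.79), a comparison that needs no scaling of the libraries. On the other side of hsp-12.3, F38E11.9 was at 3.51 CPM with EA and 5.64 CPM in control.

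hsp-12.2 was the abundant gene of the group and lies on chromosome III (8138077 to 8139631, plus strand), with 1 annotated transcript of 3 exons and 518 nucleotides and a protein of 110 residues. It had 734 counts with EA and 1257 counts in control, or 18.4 CPM and 30.4 CPM. hsp-12.2 was 1.65-fold lower with EA (1.51 to 1.81), and 155 of 4043 other genes near its level had a lower ratio. At a limit of 1.5-fold it joined hsp-12.6 as the second of 2 genes called lower, and 0 were higher, where 10.6% of all genes were lower and 5.86% higher. The authors' deposited table gave hsp-12.2 a log2 fold change of -0.73 with a false discovery rate of 0.0096 and did not call it. That rate too rests on 1 library per group and a dispersion that is not given.

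hsp-12.1 lies on chromosome I (10581538 to 10582615, minus strand) and encodes proteins from 109 residues up. The deposited annotation gives it the dense body term that hsp-25 also has. It had 42 counts with EA and 48 counts in control, or 1.05 CPM and 1.16 CPM. The interval of its log2 ratio of -0.14, from -0.77 to 0.49, is the second widest of the set, after that of hsp-12.6, and it allows a level up to 1.71-fold lower or 1.40-fold higher with EA at this depth. Of the 55 genes at 1 CPM or more with the dense body term, these included, 0 were past 2-fold, 38 had a ratio below 0 and the median was -0.12.

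**Figure D3:**
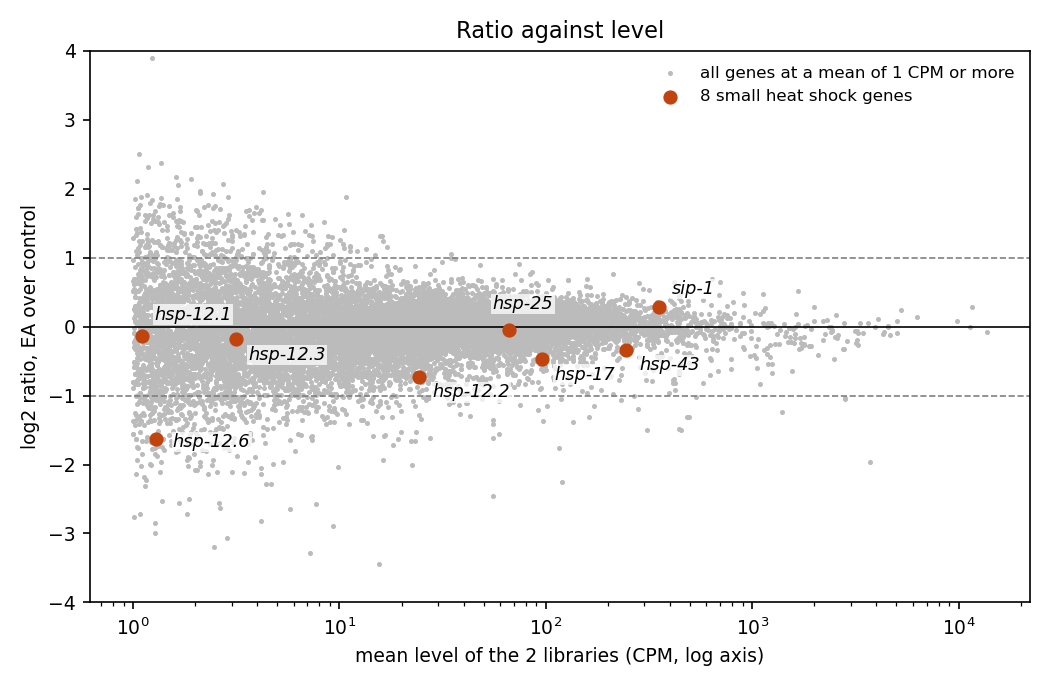
Log2 ratio of EA to control against the mean level of both libraries (CPM, log axis) for genes at 1 CPM or more, with the 8 small heat shock genes marked and dashed lines at 2-fold. The spread of all genes is wide where hsp-12.1 and hsp-12.6 lie and narrow where hsp-17, hsp-43 and sip-1 lie, and 1 gene beyond the plotted range is not shown.

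The 8 genes were also set against each other in pairs. Of the 28 possible pairs, 19 had counts whose proportion differed between the libraries beyond counting error, and these pairs share genes. The share over pairs of other genes was not computed. Single genes often had an interval that excluded 1, with 32.2% of all genes below and 31.9% above. The widest contrast was that of the lowest ratio, hsp-12.6, with the highest, sip-1, whose proportion was 0.262 as large with EA as in control (0.160 to 0.414). Among the abundant genes, hsp-17 against sip-1 had 0.592 (0.562 to 0.623) and hsp-43 against sip-1 had 0.649 (0.625 to 0.673). hsp-17 and hsp-43 lay close together, at 0.912 (0.865 to 0.962).

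Transcript length moved with the ratio over the whole table. Among 765 genes with transcripts under 500 nucleotides, the EA level was 2-fold lower or more for 17.9%, and the median log2 ratio was -0.47. From 500 to 1000 nucleotides, where hsp-12.2, hsp-12.3, hsp-12.6, hsp-17 and sip-1 lie, these were 4.48% and -0.12 over 3128 genes. From 1000 to 2000 nucleotides, the range of hsp-25 and hsp-43, they were 2.73% and 0.02 over 6232 genes. With the trend on length removed, hsp-12.6 kept -1.52, hsp-43 -0.36, and hsp-12.2 moved to -0.42, hsp-17 to -0.21, hsp-12.3 to -0.02 and hsp-25 to -0.06. hsp-12.1, at 496 nucleotides, moved to 0.19, and sip-1 to 0.47. The part of length in the ratios was not tested otherwise.

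**Figure D4:**
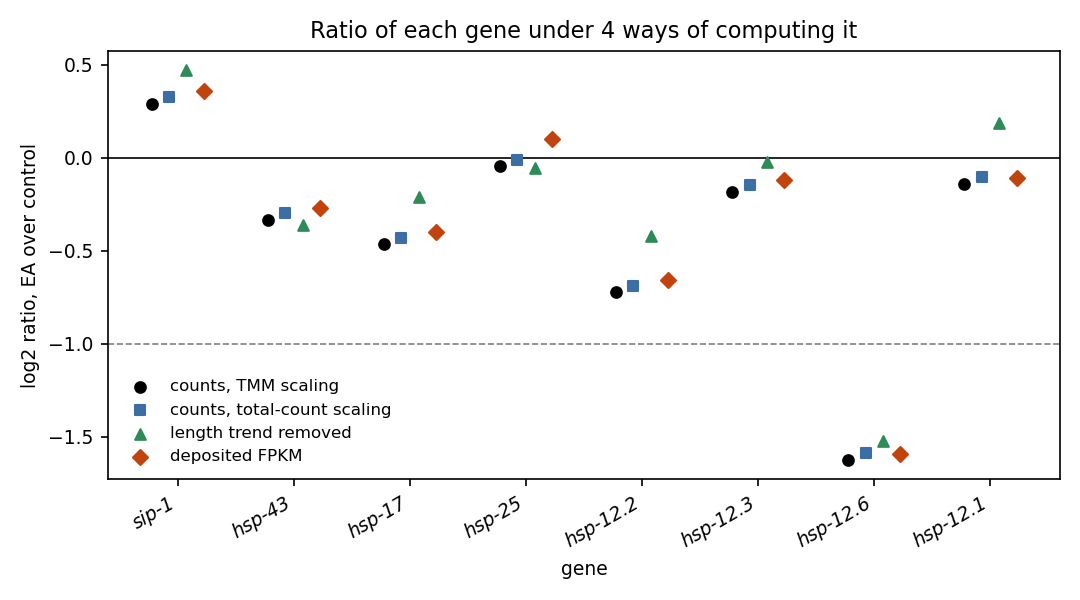
Log2 ratio of EA to control of each gene from counts with 2 scalings of the libraries, with the trend on transcript length removed, and from the deposited FPKM. hsp-12.6 stays below the dashed line at 2-fold and sip-1 above 0 in all 4, while hsp-25 and hsp-12.1 change sign in 1 of them each.

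Other genes share the domain with the 8 genes. The deposited annotation gives the Hsp20/alpha crystallin domain to 18 genes, of which 17 reached 1 CPM. By the same limits 5 of these were lower and 0 higher, beside 3.52% and 2.03% of all genes, and the median log2 ratio was -0.53. The others called were hsp-16.1, hsp-16.11, hsp-16.48 and hsp-16.49, 2.48-fold to 2.83-fold lower with EA. hsp-16.1 and hsp-16.11 are near-identical copies, as are hsp-16.48 and hsp-16.49, so single values within each pair are uncertain. With the length trend removed 2 of the called hsp-16 genes stay past 2-fold. The 6 hsp-16 genes summed to 1273 CPM with EA and 3115 CPM in control, a ratio of 0.409 (0.404 to 0.413), against 0.959 for the 8 genes. Among the 4 unnamed genes with the domain, Y55F3BR.6 was at 31.2 CPM with EA and 26.5 CPM in control, the only ratio of the 18 above 0 beside that of sip-1. ZK1128.7 was at 7.64 CPM with EA and 11.1 CPM in control. F08H9.3 had 46 counts with EA and 75 in control. F08H9.4 had 3 counts with EA and 38 in control, 10.6-fold lower (3.88 to 61.9), under the limit of 1 CPM.

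The list of chaperones that take over from small heat shock proteins lay below control as a group. All 13 genes of a list of Hsp70, J-domain, Hsp90 and nucleotide exchange factors had ratios below 0, 12 of them also by FPKM or with the length trend removed. The median log2 ratio was -0.54. Beside the 3.52% of all genes that were at least 2-fold lower, 3 of the list passed 2-fold, all lower. These were dnj-13, a J-domain co-chaperone gene at 93.2 CPM with EA and 232 CPM in control, and the inducible Hsp70 genes F44E5.5 and F44E5.4, near-identical copies at log2 ratios of -1.04 and -1.03. With the deposited FPKM, whose median log2 ratio over all genes was 0.06, only dnj-13 remained past 2-fold. With FPKM centred on that median, 3 genes of the list were past it. A further inducible gene, hsp-70, had -0.89. The constitutive genes hsp-1 and hsp-90 moved less in size than these. hsp-1 was at 1014 CPM with EA and 1471 CPM in control, a log2 ratio of -0.54, and hsp-90 had -0.24. In the same list unc-23, a nucleotide exchange factor gene, had -0.83. By these TMM-scaled counts the ratios of hsp-17 at -0.47 and hsp-43 at -0.33 lay between those of hsp-1 and hsp-90. With the length trend removed, hsp-17 had -0.21 and hsp-43 -0.36, and the median of the chaperone list was -0.60.

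In a list of 7 regulators of heat shock genes 0 were past 2-fold, with log2 ratios from -0.16 to 0.17. The median was 0.06, which turned to -0.01 with the length trend removed. hsf-1, the heat shock factor gene, was at 57.7 CPM with EA and 64.4 CPM in control, a log2 ratio of -0.16 (-0.24 to -0.08). hsb-1, which encodes a protein that binds HSF-1 and restrains it, was at 62.6 CPM with EA and 56.8 CPM in control. Of 10 insulin/IGF-1 pathway genes 0 were past 2-fold and the median was 0.01, or -0.05 with the length trend removed. These lay on both sides of 0, with 5 above and 5 below. ist-1, which encodes an insulin receptor substrate homolog, was at 10.5 CPM with EA and 14.5 CPM in control, a log2 ratio of -0.46 (-0.65 to -0.28). The kinase genes akt-2 and age-1 had -0.28 and 0.18, the receptor gene daf-2 had -0.15 and daf-16 had -0.04. The ratio of ist-1 was about as far from 0 as that of hsp-17, but with the length trend removed they had -0.52 and -0.21. A list of genes that daf-16 is known to raise in daf-2 mutants, without small heat shock genes, had 10 members at 1 CPM or more. Of these, 3 were past 2-fold, all lower with EA, beside 3.52% of all genes. The median of the list was 0.00 (-0.003). The 3 were icl-1, a glyoxylate cycle gene at 161 CPM with EA and 455 CPM in control, mtl-1, a metallothionein gene at 198 counts with EA and 536 in control, and dod-3, named after its value was seen, at 19 counts with EA and 132 in control. dod-3 passed the limit of 1 CPM through the control library, since its EA level is under it. At a limit of 5 CPM, 2 of the list were past 2-fold, beside 1.52% of all genes kept there. With the length trend removed 2 were past it, and mtl-1 had a log2 ratio of -0.89. In that list scl-1 had 0 counts in both libraries. The catalase gene ctl-1 was at 126 CPM with EA and 99.1 CPM in control. The worm longevity regulating pathway of the deposited annotation, to which hsp-12.6 and sip-1 belong, had 117 genes at 1 CPM or more. Past 2-fold were 9, all lower with EA, which is 7.69% beside the 3.52% of all genes. Of these 9, 5 are small heat shock genes already described, hsp-12.6 and 4 hsp-16 genes. The other 4 were mtl-1, also described above, mtl-2, gst-31 and lips-11, the last 3 named after their values were seen. The median log2 ratio over the pathway was -0.06, or 0.00 by the deposited FPKM.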

How the data were processed

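Per the labels' protocols, RNA-seq libraries were made from whole worms and expression was estimated as FPKM on assembly WBcel235. The authors deposited raw counts, FPKM and their own fold changes and false discovery rates in 1 table. The submitters' processing notes name edgeR with no version. The aligner, counter and use of strand were not given in the sources used here. The sample descriptions name the table's columns.

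Libraries were scaled by TMM (edgeR 4.0.16, R 4.3.3), with factors of 1.01 for EA and 0.988 for control. From the deposited counts, CPM and the log2 ratio of EA to control were computed with 0.5 added to each count. Intervals are exact conditional binomial (Clopper-Pearson) at 95% and cover counting error only, as do exact Poisson intervals of FPKM. A mean of 1 CPM corresponds to 39.9 counts in the EA library and 41.3 in the control library, and 3 counts, the limit that a count of 0 allows, to 0.0752 and 0.0726 CPM. With 1 library per group no test was run. Genes were called by a size rule: at least 2-fold, interval excluding 1, mean of at least 1 CPM. On counts simulated for this comparison with counting error only over 14221 genes, the rule called 49 of 50 genes changed 2.5-fold, 50 of 50 changed 3-fold, 0 of 50 changed 1.5-fold and 4 of 14021 unchanged genes. Neighbours by level were all tested genes with a mean within 2-fold of a gene's own.

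The members and lists were chosen with earlier results of these data known. Named genes were the 8 members, other genes with the domain, hsf-1, hsb-1, daf-16, daf-2, list members at 5 CPM or more with the largest absolute ratios (up to 4 per list) and genes overlapping a member or within 1 kb. A few further list members are named as examples, and 1 insulin/IGF-1 pathway gene that the rule names is not reported here. The Hsp20, longevity and dense body groups come from the deposited annotation, and the last 2 were added after the data were seen. In the chaperone list daf-21 was read as hsp-90. Coordinates are from RefSeq and transcripts from Ensembl release 115, both of WBcel235. The trend on the longest transcript was a lowess fit (span 0.3) over genes at 5 CPM or more.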

Additional observations from a re-analysis of the deposited data

How the results depend on the processing

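No paired analysis was possible because each group has 1 library, and for the same reason no library could be left out. Scaling by total counts, by upper quartile or by size factors from DESeq2 1.42.0, and adding 1 or 5 to each count, kept the sign of the log2 ratio of all 8 genes. Total counts moved sip-1 to 0.32 and the summed level to -0.025 from -0.06 on the log2 scale, and leaving out sip-1 moved that sum to -0.34. With the length trend removed, hsp-12.2 had -0.42, hsp-17 -0.21 and sip-1 0.47, hsp-12.1 turned from -0.14 to 0.19, and genes with the Hsp20 domain at least 2-fold lower numbered 3 in place of 5. With the deposited FPKM, hsp-17 had -0.40, hsp-43 -0.27, sip-1 0.36 and hsp-25 0.10, where the median over all genes was 0.064. Centred on that median, a step added after seeing the data, hsp-17 had -0.47, hsp-43 -0.34, sip-1 0.29 and hsp-25 0.034. The cause of the sign of hsp-25 was not tested. hsp-12.6 was called lower under every scaling and unit run. Since it lies under 5 CPM, 0 of the 8 genes were called at that minimum, and 2 were called lower at a 1.5-fold limit. Among all genes 501 were lower and 289 higher. These were 1541 and 944 with no filter on low counts, 161 and 51 at 5 CPM or more, and 1504 and 834 at a 1.5-fold limit. Depth limits hsp-12.1, hsp-12.3 and hsp-12.6 most.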

Other observations

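Marker lists of other tissues, chosen to show which tissues the RNA came from, went different ways. Of 10 sperm genes outside multicopy families, 7 reached 1 CPM and all 7 had ratios above 0, with a median log2 ratio of 0.55. Of these, 3 were at least 2-fold higher with EA, beside 2.03% of all genes. Among them were the sperm phosphatase genes gsp-3, at 8.37 CPM with EA and 3.63 CPM in control, and gsp-4, at 12.5 CPM with EA and 5.42 CPM in control. Both had a log2 ratio of 1.20, and whether they count as separate observations was not tested. The remaining gene was peel-1, which encodes a sperm-delivered toxin, at 61 counts with EA and 31 in control. It lies below the 5 CPM of the naming rule. peel-1 passed the limit of 1 CPM through the EA library, since its control level is under it. The sperm list summed to 109 CPM with EA and 87.4 CPM in control. The 6 intestine markers had a median of -0.02, or 0.05 by the deposited FPKM, with elt-2, the intestinal GATA factor gene, at 0.42, vit-2, a yolk protein gene, at 0.28 and ges-1, a gut esterase gene, at -0.27. Their sum was 13539 CPM with EA and 11280 CPM in control, a ratio of 1.20, and vit-2 made up most of it at 12720 CPM with EA and 10451 CPM in control. The 3 epidermis markers at 1 CPM or more all had ratios below 0, from -0.42 for vab-10 to -0.05 for the adult collagen gene col-19, and 1 of them turned by the deposited FPKM. Of the 5 neuron markers 4 were below 0, or 3 by FPKM, with a median of -0.17.

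Genes of the dense body term were led by unc-23 and Y43F8B.2, in a group added after the data were seen. unc-23, which encodes a nucleotide exchange partner of Hsp70 in muscle, was at 94.7 CPM with EA and 169 CPM in control, a log2 ratio of -0.83, and Y43F8B.2 had 2275 counts with EA and 4183 in control. hsp-25 and hsp-12.1, which carry the same term, had -0.05 and -0.14.

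hsp-12.2 shares 11 of its 518 exon bases with C14B9.8 on the opposite strand, a gene at 67.4 CPM with EA and 66.7 CPM in control. Close to sip-1, urm-1 at 206 bases had a log2 ratio of -0.56 and sly-1 at 256 bases had -0.10, while sip-1 itself had 0.29.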
